A study of Mus musculus with 4 samples.

Results

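The keratin genes were taken as every gene whose symbol is Krt followed by a number and, in some cases, 1 letter, and 51 of the 38713 genes with values met this rule. They comprised 28 type I and 23 type II genes, of which 4 were grouped as luminal (Krt7, Krt8, Krt18 and Krt19), 4 as basal (Krt5, Krt14, Krt15 and Krt17), 3 as stress keratins (Krt6a, Krt6b and Krt16) and 40 as other. RNA levels were measured by sequencing in 4 cell lines grown from mammary tumors of parous C57BL/6 mice, with 1 library from each line and each line from a separate tumor. All of the mice carried Wap-Cre, a recombinase driven by a milk protein promoter that is active in mammary epithelium, together with floxed Trp53, so the lines of both groups were p53-deficient. The JNK_WT lines (n = 2) had intact JNK genes, whereas the JNK_KO lines (n = 2) came from mice that also had floxed Mapk8 and Mapk9, the genes that encode JNK1 and JNK2. Tumors were digested with collagenase, and the cells were passaged on collagen I before they were moved to standard dishes. The lines are therefore tumor cells that grew in culture, and each genotype is represented by 2 of them. Levels are given as FPKM (fragments mapped to a gene, corrected for transcript length and for library size), and values of a genotype are given in the order replicate 1 and 2 for JNK_WT and replicate 1 and 3 for JNK_KO.

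Keratins are the intermediate filament proteins of epithelial cells. Each filament is built from obligate pairs of a type I and a type II chain, and each pair marks a kind of epithelium. In the mammary gland the inner, luminal cells use the type II chains Krt8 and Krt7 with the type I chains Krt18 and Krt19, while the outer, basal cells use Krt5 with Krt14 and also make Krt17 and Krt15. Krt6a, Krt6b, Krt16 and Krt17 are induced in skin and other epithelia by wounding and in hyperproliferative states, and most remaining members belong to hair, nail, tongue or the upper layers of the epidermis. Since keratins are linked to the membrane through desmosomes and hemidesmosomes, genes of these junctions were examined beside them.

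The library of each line was first examined as a whole. Mapk8 was at 23.9 and 19.1 FPKM in the JNK_WT lines and at 4.30 and 4.27 FPKM in the JNK_KO lines, and Mapk9 was at 29.7 and 24.3 FPKM and at 12.6 and 8.66 FPKM, neither past the threshold of the test used here (limma adjusted p = 0.191 and 0.429). Trp53, floxed in all lines, was at 1.55, 4.15, 5.72 and 4.28 FPKM. FPKM summed to between 775959.5 and 921595 per library, and 12407 to 12875 genes reached 1 FPKM. All 6 epithelial markers (Epcam, Cdh1, Cldn3, Cldn4, Cldn7 and Esrp1) reached 1 FPKM in every line, with sums of 1522 and 1869.7 FPKM in the JNK_WT lines and 655 and 1497 FPKM in the JNK_KO lines. The 6 leukocyte markers summed to 21.9 and 3.67 FPKM in the JNK_WT lines and to 3.06 and 9.76 FPKM in the JNK_KO lines. Most of this was Cd68 (20.0, 3.15, 2.65 and 8.43 FPKM), and Csf1r reached 1.82 FPKM, whereas the pan-leukocyte gene Ptprc was at most 0.0134 FPKM. The adipocyte gene Plin1 was listed at 0 in all lines, and the 4 endothelial markers together reached at most 0.519 FPKM. The 7 fibroblast markers summed to 11.7 and 1.66 FPKM in the JNK_WT lines and to 108 and 177 FPKM in the JNK_KO lines, where Dcn (0.430, 0.389, 79.7 and 161.7 FPKM over the 4 lines) made up most of the sum. Dcn, Pdgfra and Pdgfrb were under 1 FPKM in both JNK_WT lines, so they passed the filter on low values only through the JNK_KO lines. Of the fibrillar collagens, Col1a1 was at most 0.527 FPKM, Col1a2 was at 10.3, 0.374, 0.698 and 2.56 FPKM, and Col3a1 reached 1.33 FPKM in JNK_KO replicate 3. Lum was listed at 0 in 3 of the lines. Ptprc, Col1a1 and Col3a1 were chosen after their values were seen.

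Of the 51 keratins, 10 were listed at 0 in every line and 24 were above 0 but under 1 FPKM in every line. The remaining 17 reached 1 FPKM in at least 1 line, and 7 of them did so in all lines. The number at 1 FPKM or more was 8 and 14 in the JNK_WT lines and 11 and 11 in the JNK_KO lines. The summed keratin level was 3527 and 2906 FPKM in the JNK_WT lines and 1215 and 2393 FPKM in the JNK_KO lines, which was 0.455%, 0.345%, 0.132% and 0.297% of all FPKM. Both JNK_WT sums lay above both JNK_KO sums, an order found for 16.7% of all genes tested. Krt8, Krt18 and Krt7 together made up 71.0% to 97.1% of the sums. The JNK_KO mean of the keratin sum was 0.561 of the JNK_WT mean. The lowest sum, that of JNK_KO replicate 1, occurred in the line with the lowest sum of epithelial markers, and the part of epithelial content in this difference was not tested. In bulk RNA, fewer cells of a type and less RNA per cell cannot be told apart.

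The luminal keratins were the most abundant class in each line. They made up 99.0% of the keratin sum in JNK_WT replicate 1 and 71.3% in replicate 2, and 95.7% and 84.3% in JNK_KO replicates 1 and 3. Krt18 (type I, chr15:102028180-102032027, plus strand, GRCm38) was at 1466 and 752 FPKM in the JNK_WT lines and at 385 and 789 FPKM in the JNK_KO lines. The 2 genotypes overlapped, since JNK_KO replicate 3 exceeded JNK_WT replicate 2. Krt8 (type II, chr15:101996698-102004482, minus strand), the partner of Krt18, was at 1045 and 564 FPKM in the JNK_WT lines and at 278 and 526 FPKM in the JNK_KO lines. These groups did not overlap, although 526 and 564 FPKM lay closer to each other than to the second line of their own genotype. Krt7 (type II, chr15:101411043-101430313, plus strand), found in simple and ductal epithelia, was the steadiest of the class, with 914, 746, 477 and 687 FPKM in the same order and no overlap. Krt19 (type I, chr11:100140810-100148665), a short keratin of ductal epithelium, was the lowest of the class with 66.6 FPKM in JNK_WT replicate 1, 11.1 FPKM in JNK_WT replicate 2, 22.5 FPKM in JNK_KO replicate 1 and 16.0 FPKM in JNK_KO replicate 3. Both JNK_KO lines thus lay between the JNK_WT lines. Among all genes, Krt18 ranked 36th and 79th from the top in the JNK_WT lines and 198th and 92nd in the JNK_KO lines.

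**Figure D1:**
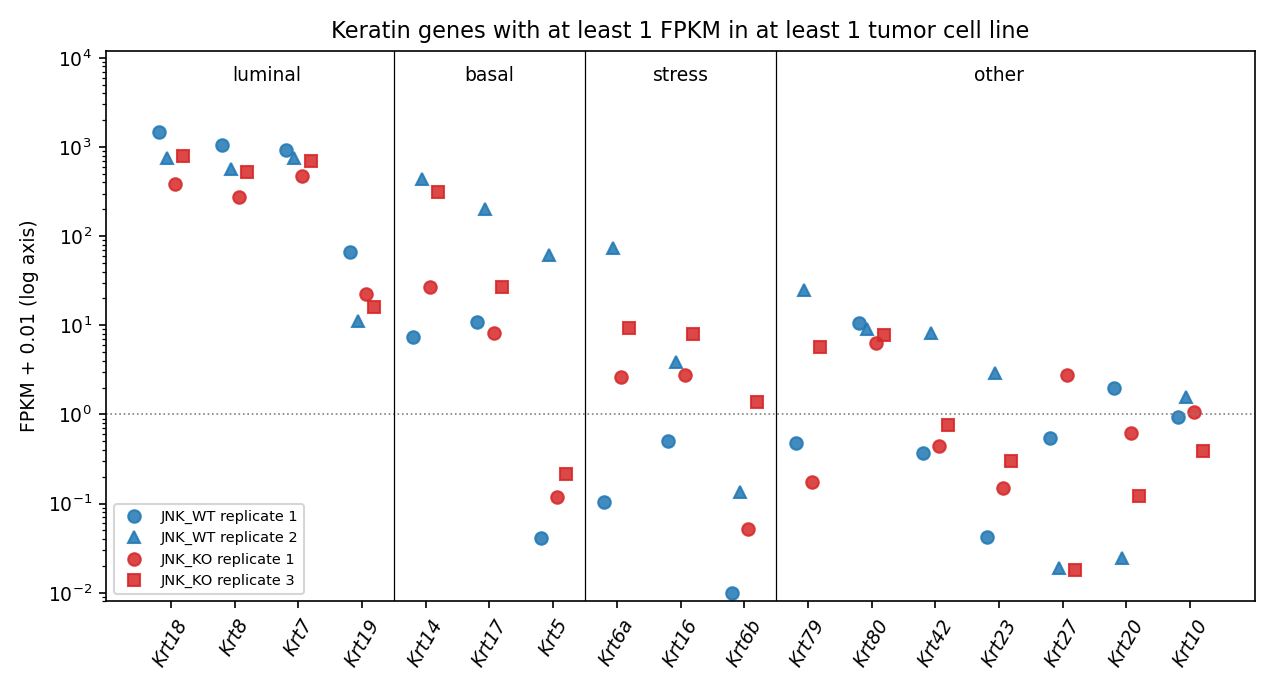
FPKM (plus 0.01, log axis) of the 17 keratins with at least 1 FPKM in at least 1 line, grouped as luminal, basal, stress and other, with 1 point per line and the dotted line at 1. Krt18, Krt8 and Krt7 sit at the top in all lines, whereas the points of Krt14, Krt17 and Krt6a are spread within each genotype and those of Krt5 within JNK_WT.

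Krt8 and Krt18 kept nearly the same proportion while their levels differed 3.76-fold and 3.81-fold across the lines. The ratio of Krt8 to Krt18 was 0.713 and 0.749 in the JNK_WT lines and 0.722 and 0.667 in the JNK_KO lines, a range of 0.17 on the log2 scale. For comparison, the ratio to Krt18 was computed for each of the 11143 other genes with at least 1 FPKM in all lines. The median range was 1.99, which partly reflects Krt18 itself, since a gene with even levels would carry the 3.81-fold spread of Krt18. A narrower range than that of Krt8 was found for 1 gene, Hs1bp3, which is named here only because its value was seen. This is a description over 4 lines that share their libraries between both genes. Krt7 moved less closely with Krt18, with a range of 0.99, and 3.73% of the genes had a narrower one. The other pairs of type II and type I chains were far from constant. The ratio of Krt7 to Krt19 ran from 13.7 to 67.1, and that of Krt5 to Krt14 was 0.140 in JNK_WT replicate 2 but 0.00430, 0.00411 and 0.000656 in JNK_WT replicate 1, JNK_KO replicate 1 and JNK_KO replicate 3.

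Krt8 and Krt18 are neighbours, with 23697 bases between them, and Krt18 is the only type I keratin in the type II cluster. The cluster on chromosome 15 (101347444 to 102032027) held 24 of the members and the type I cluster on chromosome 11 (99232761 to 100269871) held 27. The 2 transcripts are nonetheless dissimilar, with 55.9% identity over 1229 aligned coding bases, and shared no 40-base stretch. The type I chains made up 44.1% and 49.1% of the keratin sum in the JNK_WT lines and 37.1% and 48.2% in the JNK_KO lines. Type II transcripts therefore exceeded type I transcripts in each of the lines, least of all in JNK_WT replicate 2.

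**Figure D2:**
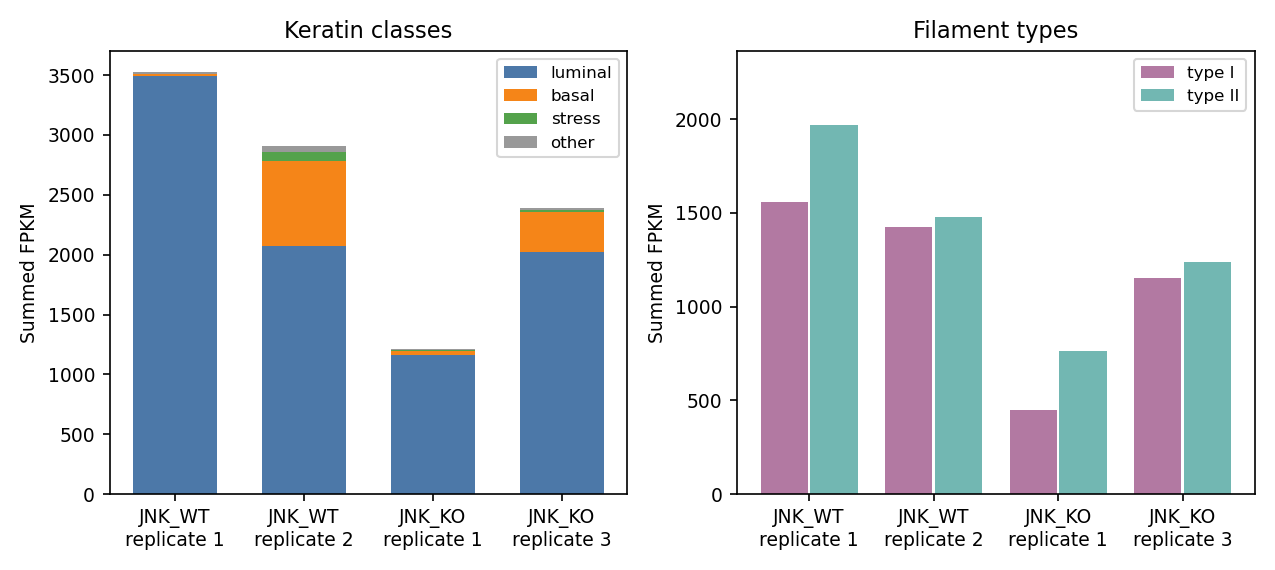
Summed FPKM of the keratins in each line, stacked by class (left) and side by side for type I and type II chains (right), both axes from 0. The keratin sum is 3527 FPKM in JNK_WT replicate 1 and 1215 FPKM in JNK_KO replicate 1, and basal keratins form a visible part of the bar in JNK_WT replicate 2 (24.3%) and JNK_KO replicate 3 (14.2%).

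**Figure D3:**
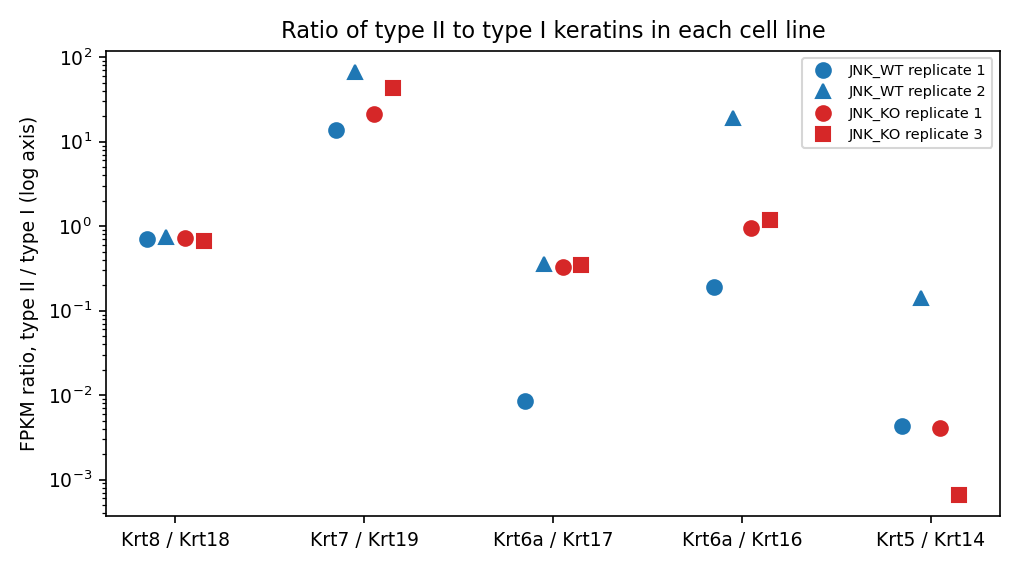
Ratio of FPKM of a type II to a type I keratin (log axis) for 5 pairs, with 1 point per line. The 4 points of Krt8 to Krt18 lie between 0.667 and 0.749, while those of Krt5 to Krt14 spread from 0.000656 to 0.140.

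Among the basal keratins, Krt14, Krt17 and Krt5 differed widely between the JNK_WT lines, and Krt14 also between the JNK_KO lines. Krt14 (type I, chr11:100203162-100207548), the main type I chain of basal cells, had values of 7.34 FPKM and 443 FPKM in the JNK_WT lines and of 26.7 FPKM and 313 FPKM in the JNK_KO lines. Each genotype thus held 1 line with a high and 1 line with a low level, and the groups overlapped. In JNK_WT replicate 2, Krt14 ranked 171st among all genes, beside 8442nd in JNK_WT replicate 1. Krt17 (type I, chr11:100256217-100261029) was at 10.99 and 202 FPKM in the JNK_WT lines and at 8.14 and 26.7 FPKM in the JNK_KO lines. JNK_WT replicate 2 stood above the other lines for both genes, but in JNK_KO replicate 3 the ratio of Krt17 to Krt14 was 0.0855, beside 0.456 in JNK_WT replicate 2.

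Krt5 (type II, chr15:101707070-101712898), the usual partner of Krt14, was at 61.9 FPKM in JNK_WT replicate 2 alone. Its level was 0.0316 FPKM in JNK_WT replicate 1, 0.110 FPKM in JNK_KO replicate 1 and 0.205 FPKM in JNK_KO replicate 3. JNK_KO replicate 3 therefore held 313 FPKM of Krt14 with almost no Krt5 transcript. No other type II keratin of the basal or stress classes came near Krt14 in that line, where Krt6a was at 9.37 FPKM and Krt8 at 526 FPKM. Krt15 (type I, chr11:100131758-100135928), known from the basal layer and the hair follicle bulge, stayed under 1 FPKM in every line (0.194, 0.648, 0.0291 and 0.0371 FPKM). The basal class made up 0.526% and 24.3% of the keratin sum in the JNK_WT lines and 2.88% and 14.2% in the JNK_KO lines.

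Markers of myoepithelial cells, the contractile basal cells of the gland, were examined beside these values. Trp63, which encodes the master regulator of basal epithelium, was at 0.0706 and 21.9 FPKM in the JNK_WT lines and at 1.16 and 6.58 FPKM in the JNK_KO lines, so its order over the lines was that of Krt14. Acta2, the smooth muscle actin of myoepithelium, was at 7.36 and 3.19 FPKM in the JNK_WT lines and at 1.70 and 29.0 FPKM in the JNK_KO lines, an order that Krt14 did not share. Tagln, another contractile gene, was even across the lines (1.32, 1.35, 0.822 and 1.30 FPKM). In contrast, Cnn1 (0.277, 2.24, 0.423 and 0.438 FPKM) and Mylk (0.139, 1.79, 0.344 and 0.369 FPKM), also contractile genes, had the order of Krt14. Both reached 1 FPKM in JNK_WT replicate 2 alone, and both were named after their values were seen. Of the 7 myoepithelial markers, 1 reached 1 FPKM in every line, and 2 stayed under 1 FPKM throughout, Myh11 and Oxtr, named to complete the count. The summed level of the list was 9.23 and 30.5 FPKM in the JNK_WT lines and 4.52 and 37.9 FPKM in the JNK_KO lines. The part of these cells in the basal keratin levels was not tested. Col17a1, a collagen of the hemidesmosome chosen after its values were seen, was at 18.2 FPKM in JNK_WT replicate 2 and under 1 FPKM elsewhere, the pattern seen for Krt5.

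The stress keratins stayed under 10 FPKM, except Krt6a in JNK_WT replicate 2. Krt6a (type II, chr15:101689910-101694307) was at 0.0933 and 72.9 FPKM in the JNK_WT lines and at 2.65 and 9.37 FPKM in the JNK_KO lines. Krt16 (type I, chr11:100246091-100248902), a partner of Krt6a, was at 0.488 and 3.87 FPKM in the JNK_WT lines and at 2.78 and 8.02 FPKM in the JNK_KO lines. For both genes the JNK_KO lines overlapped with the range of the JNK_WT lines, and JNK_WT replicate 1 was the lowest. Krt6b (type II, chr15:101676023-101680287), the close copy of Krt6a, was listed at 0 in JNK_WT replicate 1, at 0.124 FPKM in JNK_WT replicate 2, at 0.0412 FPKM in JNK_KO replicate 1 and at 1.36 FPKM in JNK_KO replicate 3. The line with the most Krt6a was thus not the line with the most Krt6b. The ratio of Krt6a to Krt16 was 18.9 in JNK_WT replicate 2 and between 0.191 and 1.17 in the other lines. The ratio of Krt6a to Krt17 was 0.361, 0.325 and 0.351 in JNK_WT replicate 2 and the JNK_KO lines, and 0.00849 in JNK_WT replicate 1.

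Several of these levels rest on reads that cannot be placed with certainty, since the reads were 40 bases long and the genes are close copies. The coding sequences of Krt6a and Krt6b were 97.8% identical over 1659 aligned bases. A window of 40 bases that both genes share and 1 window in which they differ most are shown, in order to make clear which reads could tell the genes apart. The shared window lies in exon 1 of Krt6a (chr15:101694176-101694215, minus strand, GRCm38), and the other window lies in exon 4 of Krt6a (chr15:101692490-101692529) and of Krt6b (chr15:101678309-101678348), both on the minus strand. Capitals mark the 9 bases that differ.
shared by Krt6a and Krt6b: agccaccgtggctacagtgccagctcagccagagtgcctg
Krt6a, exon 4: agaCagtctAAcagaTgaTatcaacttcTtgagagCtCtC
Krt6b, exon 4: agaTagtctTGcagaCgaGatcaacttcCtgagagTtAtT
A read over the first stretch fits both genes, and a read over the second fits 1 of them. Of all 40-base windows of the longest coding Krt6a transcript, 46.5% also occurred in Krt6b, 51.4% in any other keratin and 64.4% in any other gene. The last share counts both strands and includes windows in the antisense transcript Gm49428 (16.1%), which is not a keratin copy. For Krt6b the share was 47.8% in any other keratin and 53.5% in any other gene, so the levels of both genes are uncertain.

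The basal type I keratins on chromosome 11 share sequence to a lesser degree. Krt14 was 86.2% identical to Krt16 over 1396 aligned coding bases and 82.0% identical to Krt17 over 1299 bases. The first 40 coding bases of Krt14 (chr11:100207416-100207455, minus strand, exon 1) recur unchanged in Krt16 and are shown as an example.
shared by Krt14 and Krt16: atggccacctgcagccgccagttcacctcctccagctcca
Of the windows of Krt14, 14.9% were shared with Krt16 and 6.39% with Krt17. For Krt16, 28.0% of the windows occurred in the pseudogene Gm11597 and 44.3% in any other gene, and Krt16 was far below Krt14 in JNK_WT replicate 2 and JNK_KO replicate 3. Of the windows of Krt8, 29.1% occurred in the processed pseudogene Krt8-ps. In contrast, 4.36% of the windows of Krt18, 1.09% of those of Krt7 and none of those of Krt19, Krt20, Krt23 and Krt79 occurred elsewhere. Among the 17 expressed keratins, 7 had at least 10% of their windows in another gene. Krt5 was among them with 13.6%, which included 8.11% shared with Krt6a.

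**Figure D4:**
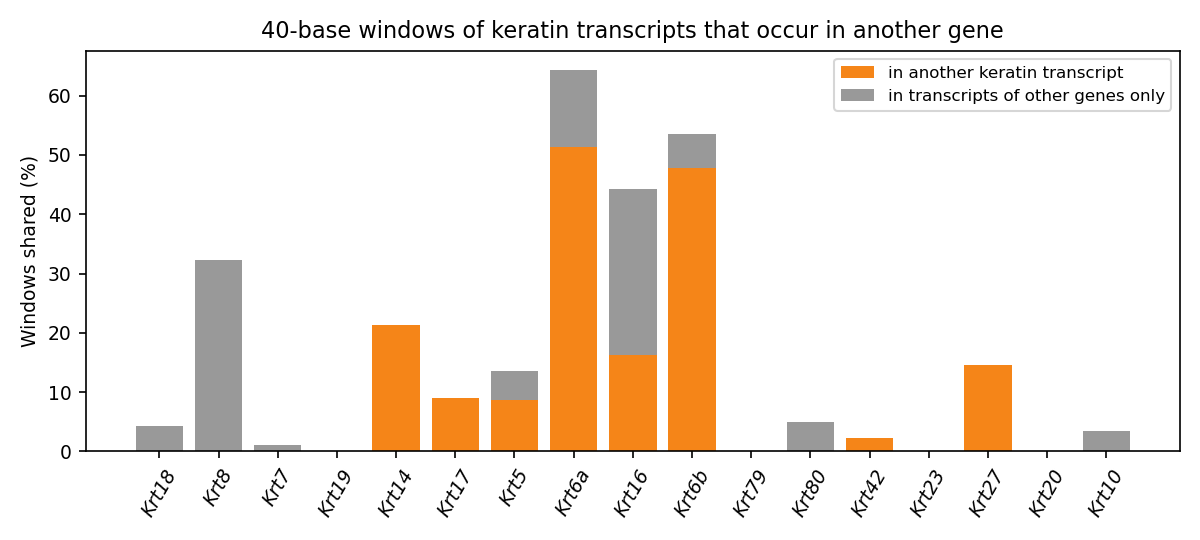
Percentage of the 40-base windows of each expressed keratin transcript (GENCODE M21) that also occur in another keratin (orange) or in transcripts of other genes alone (grey). Krt6a (64.4%), Krt6b (53.5%), Krt16 (44.3%) and Krt8 (32.4%) stand highest, whereas Krt18 and Krt7 are under 5%.

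Among the 40 other keratins, 7 reached 1 FPKM in any line. Krt80 (type II, chr15:101347444-101370162), which is made in differentiating epithelia, was the most even of them, with 10.7 and 9.03 FPKM in the JNK_WT lines and 6.31 and 7.82 FPKM in the JNK_KO lines. Its groups did not overlap. Krt79 (type II, chr15:101929332-101940324), a keratin of the hair follicle opening, was at 0.463 and 25.1 FPKM in the JNK_WT lines and at 0.163 and 5.64 FPKM in the JNK_KO lines, with the same 2 lines high as for Krt14. Krt42 (type I, chr11:100262882-100269871) was at 8.19 FPKM in JNK_WT replicate 2 and under 1 FPKM in the other lines, at most 0.745 FPKM. Krt23 (type I, chr11:99477974-99493137) followed the same pattern, with 2.92 FPKM in JNK_WT replicate 2 and 0.0321 to 0.287 FPKM elsewhere.

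The remaining 3 of these genes stayed under 3 FPKM. Krt20 (type I, chr11:99428403-99438150), a keratin of intestinal epithelium and urothelium, was at 1.97 FPKM in JNK_WT replicate 1, 0.0148 FPKM in JNK_WT replicate 2, 0.603 FPKM in JNK_KO replicate 1 and 0.112 FPKM in JNK_KO replicate 3. Krt27 (type I, chr11:99345565-99351104), of the inner root sheath of hair, was at 0.539 and 0.00872 FPKM in the JNK_WT lines and at 2.78 and 0.00783 FPKM in the JNK_KO lines. Krt20 and Krt27 were thus detected more in replicate 1 of each genotype, the 2 lines with little Krt14. Krt10 (type I, chr11:99385254-99389364), the chain of upper epidermal layers, stayed between 0.378 and 1.57 FPKM. The reads were not stated to be strand-specific, so transcripts antisense to Krt80, Krt10 and Krt6a in the annotation cannot be told apart from these genes. Of the 14 keratins of hair cortex and cuticle in the table, 6 were listed at 0 in all lines and 8 were under 1 FPKM in all lines, and of the 9 keratins of the inner root sheath and companion layer Krt27 alone reached 1 FPKM.

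Taking the 17 expressed keratins by line, JNK_WT replicate 1 held the highest value of 6 (Krt18, Krt8, Krt7, Krt19, Krt80 and Krt20) and the lowest value of 7 (Krt14, Krt6a, Krt5, Krt42, Krt16, Krt23 and Krt6b). JNK_WT replicate 2 held the highest value of 8, among them Krt14, Krt17, Krt5 and Krt6a. JNK_KO replicate 1 held the lowest value of 6, including Krt18, Krt8 and Krt7, and JNK_KO replicate 3 the highest of 2, Krt16 and Krt6b. The highest and the lowest luminal share, 99.0% and 71.3%, thus belonged to the 2 JNK_WT lines.

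The difference between genotypes, JNK_KO minus JNK_WT, was tested with limma on log2(FPKM + 1) over the 12998 genes with at least 1 FPKM in at least 2 libraries, and 11 keratins were among them. No member passed through the libraries of 1 genotype alone. None of the 11 passed both thresholds, an adjusted p-value under 0.05 and an absolute log2 difference over 0.75, as for all genes (0.00%). None had an unadjusted p-value under 0.05 either, beside 7.63% of all genes (4.75% higher and 2.89% lower in JNK_KO). The number called was also 0 without the intensity trend and in a robust fit, which says nothing about stability. In simulated data, 0.0% of changes of 2 on the log2 scale were called. The difference was negative for 9 of the 11 keratins and for 6318 of the 12998 genes. The median was -0.53, beside 0.01 over all genes tested, and -0.73 for the luminal class (-1.43 without JNK_WT replicate 2 and -0.41 without JNK_WT replicate 1). The groups did not overlap for 3 keratins, Krt7, Krt8 and Krt80, all lower in JNK_KO, while 35.0% of all genes did not overlap (16.7% lower and 18.3% higher). The absolute difference was over 0.75 for 4 keratins that were lower and 1 that was higher in JNK_KO (6.43% and 9.25% of all genes, 15.7% in either direction).

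By class, Krt8 had a log2 difference of -1.0 (SE 0.48, limma adjusted p = 0.781) and Krt18 one of -0.93 (SE 0.53, adjusted p = 0.848). Krt7 and Krt19 had differences of -0.53 (SE 0.31, adjusted p = 0.858) and -0.52 (SE 0.87, adjusted p = 0.999). Among the basal and stress keratins, the standard errors exceeded the differences for Krt14 (0.62, SE 2.25) and Krt6a (-0.55, SE 2.11). Krt17 had a difference of -1.63 (SE 1.48) and Krt16, the only member over 0.75 in the direction of JNK_KO, one of 1.12 (SE 0.77). Of the other keratins, Krt79 had a difference of -1.15 (SE 1.65), Krt80 of -0.43 (SE 0.30) and Krt10 of -0.40 (SE 0.37). Adjusted p-values of these 7 genes lay between 0.904 and 0.999. Krt5 was not tested, since it reached 1 FPKM in 1 library.

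**Figure D5:**
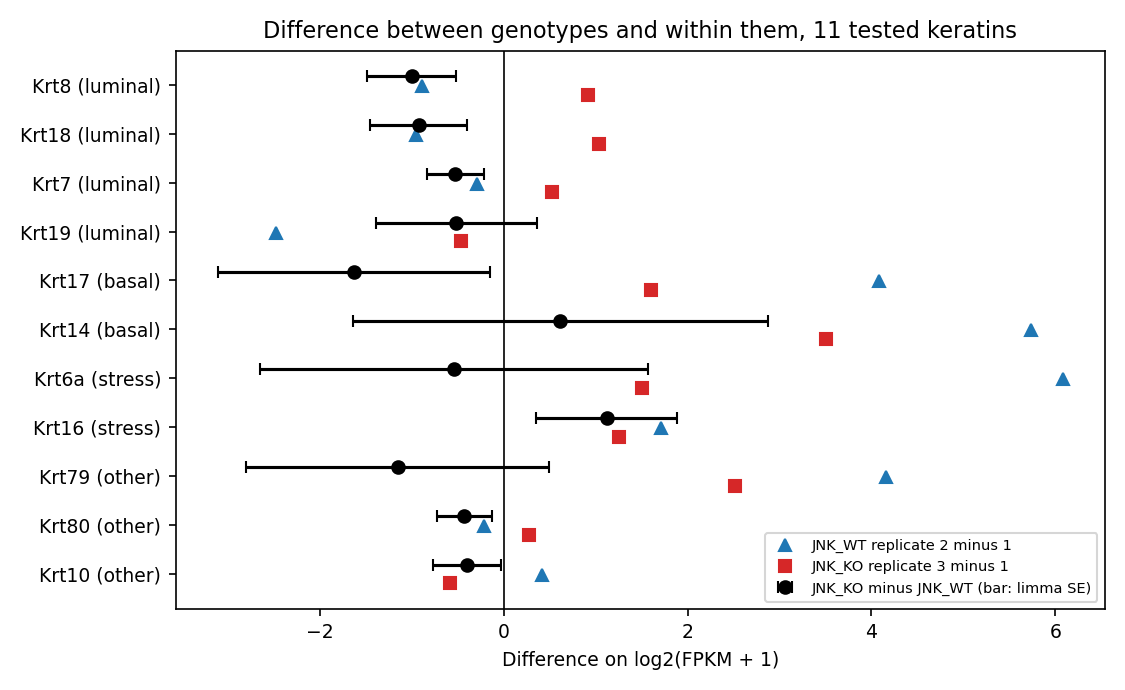
Differences on log2(FPKM + 1) for the 11 tested keratins, with the JNK_KO minus JNK_WT difference and its limma standard error (black), the difference between the JNK_WT lines (blue) and that between the JNK_KO lines (red). The lines of 1 genotype differ by more than the genotypes do for Krt14 (5.73 within JNK_WT, 3.50 within JNK_KO, 0.62 between) and Krt6a (6.08, 1.51 and -0.55).

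The median spread between lines of 1 genotype was larger over the keratins than over all genes. The JNK_WT lines differed by more than 1 on the log2 scale for 6 of the 11 keratins (18.1% of all genes), and so did the JNK_KO lines for 6 of 11 (11.5% of all genes). The median absolute difference was 1.71 within JNK_WT, 1.03 within JNK_KO and 1.01 across genotypes, beside 0.43, 0.33 and 0.38 over all genes. The value across genotypes averages the medians of each JNK_KO line set against each JNK_WT line. It is therefore not the difference between genotype means that was tested. For 8 keratins the JNK_WT lines differed by more than the genotype means did, and for 7 the JNK_KO lines did. The share over all genes was not computed for these counts, so they show nothing particular to keratins. The direction also depended on single lines. Without JNK_WT replicate 2 the differences of Krt17, Krt6a and Krt79 became 0.41, 2.49 and 0.93, whereas without JNK_WT replicate 1 that of Krt14 became -2.25 and that of Krt19 0.72. With 2 lines per genotype, p-values rest only on the spread between these lines, with each gene's variance drawn toward that of all genes tested. Both JNK_KO lines had less Krt8 and Krt7 and more Dcn, Pdgfra and Pdgfrb than the JNK_WT lines, whereas Col1a1, Col1a2 and Col3a1 overlapped between genotypes. Since Dcn, Pdgfra and Pdgfrb passed the filter only through the JNK_KO lines, their order follows from the filter. Within JNK_KO, replicate 3 had the larger sum of fibroblast markers (177 beside 108 FPKM), which was mostly Dcn. Pdgfra was lower there than in replicate 1 (7.82 beside 24.7 FPKM), and Krt8 and Krt7 were higher. The part of fibroblasts in these differences was not tested.

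The genes that link keratin filaments to the membrane were described for comparison. Of 23 genes of desmosomes, hemidesmosomes and their linkers in the table, 17 were tested, none was called, and the median difference was -0.27 (0.06 without JNK_WT replicate 2). In 4 of the 17 the JNK_KO lines lay below the JNK_WT lines (16.7% of all genes), and in 1 above. Jup, which encodes the desmosomal plaque protein plakoglobin, was at 216 and 478 FPKM in the JNK_WT lines and at 93.2 and 195 FPKM in the JNK_KO lines (difference -1.24, SE 0.56, limma adjusted p = 0.746). Itgb4, the integrin chain that joins hemidesmosomes to keratin through plectin, was at 35.6 and 178 FPKM in the JNK_WT lines and at 19.8 and 31.4 FPKM in the JNK_KO lines (-1.64, SE 0.82, adjusted p = 0.801). The groups of both genes lay apart, and JNK_WT replicate 2 was highest for each. Dsp, encoding desmoplakin, which binds keratins directly, overlapped between groups (11.1, 33.7, 9.10 and 16.6 FPKM, difference -0.62, SE 0.62). The other genes without overlap, Pkp3 and Cd151 lower and Pkp4 higher in JNK_KO, are named since they complete the count.

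Among 18 genes of other intermediate filaments, 7 were tested, none was called and the median difference was 0.11 (-0.10 without JNK_WT replicate 1 and -0.11 without JNK_KO replicate 1). Vim, which encodes vimentin, the filament protein of mesenchymal cells, was at 331 and 47.2 FPKM in the JNK_WT lines and at 500.4 and 159 FPKM in the JNK_KO lines (difference 1.16, SE 1.10). JNK_WT replicate 2 and JNK_KO replicate 3, in which Krt14 was high, had the lower Vim value of their genotype. Nes, encoding nestin, was at 16.1, 4.76, 5.47 and 0.601 FPKM (-1.63, SE 0.90), also lower in those lines. Lmna, which encodes nuclear lamins A and C, was at 68.2 and 142 FPKM in the JNK_WT lines and at 199 and 164 FPKM in the JNK_KO lines (0.87, SE 0.42, adjusted p = 0.780), without overlap. Among 23 genes of cornification, the program that hardens upper epidermal cells, 7 were tested and none was called, with a median of 0.39 (0.95 without JNK_WT replicate 2, 0.98 without JNK_KO replicate 1 and 0.015 without a filter). Their largest differences were those of Sbsn (5.37, 9.83, 12.2 and 42.4 FPKM, difference 1.53, SE 0.68), Tgm1 (1.11, 5.21, 5.43 and 11.5 FPKM, 1.31, SE 0.67) and Tgm5 (0.148, 0.706, 1.49 and 1.76 FPKM, 0.90, SE 0.35), in which both JNK_KO lines lay above both JNK_WT lines (18.3% of all genes). Tgm5 passed the filter only through the JNK_KO lines, so its order follows from the filter.

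Of 22 transcription factors and regulators of epithelial identity, all were tested, none was called, and the median difference was 0.27. It was -0.52 without JNK_WT replicate 1 and -0.16 without JNK_KO replicate 3, so its sign rests on single lines. An unadjusted p-value under 0.05 was found for 2 of them, both higher in JNK_KO (4.75% of all genes). Gata3, which encodes a factor required by luminal cells, was at 1.79 and 1.18 FPKM in the JNK_WT lines and at 31.6 and 38.6 FPKM in the JNK_KO lines (difference 3.87, SE 0.31, limma adjusted p = 0.0903). The luminal keratins did not have this order, since Krt8 and Krt7 were lower in the lines with more Gata3. Zeb1, encoding a repressor of epithelial genes, was at 1.96 and 1.02 FPKM in the JNK_WT lines and at 7.44 and 5.76 FPKM in the JNK_KO lines (1.63, SE 0.36, adjusted p = 0.378). Tfap2c, encoding an AP2 factor of mammary epithelium, was at 15.3 FPKM in JNK_WT replicate 2 and between 0.171 and 1.29 FPKM in the other lines, as was seen for Krt5, Krt42 and Krt23. The other tested genes on the chromosomes of the keratin clusters had a median difference of -0.20 over 1042 genes on chromosome 11 and of 0.01 over 479 genes on chromosome 15. On chromosome 11, which holds Krt14 and Krt17, the genes of JNK_WT replicate 2 stood 0.35 above their mean over the lines on the log2 scale (median), beside -0.12, -0.14 and -0.04 in JNK_WT replicate 1, JNK_KO replicate 1 and JNK_KO replicate 3, and the part of this in the keratin levels was not tested.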

How the data were processed

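RNA was measured in 4 tumor cell lines, grouped as JNK_WT and JNK_KO by the sample titles. Per the labels and the methods of the study, the authors trimmed single-end 40-base reads, sampled the libraries to similar read numbers, aligned them to GRCm38 (mm10) with TopHat2 2.0.14 and Bowtie2 and estimated expression with Cufflinks 2.2.1 (versions from the submitters' processing notes). The deposited values were FPKM, 1 per gene and library, with no read counts, so no depth per library was used and no counting interval was computed. The gene annotation is not given in the sources used here. Of 38741 rows, 27 with symbols turned into dates and 1 without a value were left out.

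Genes with at least 1 FPKM in at least 2 libraries were tested on log2(FPKM + 1), a scale that understates changes of low genes, with limma 3.58.1 in R 4.3.3 (eBayes with an intensity trend, two-sided, Benjamini-Hochberg over all genes tested), after a check on simulated data. The test used in the study needs the aligned reads and could not be repeated. The smallest p-value that a permutation of 2 against 2 libraries can give is 0.333. Keratins were matched by symbol, and positions and transcripts came from GENCODE M21. Each 40-base window of a member's longest coding transcript was searched, on both strands, in the transcripts of other genes, and 50 of the members had such a transcript. The members and gene lists were chosen with earlier results of these data known. Named were all keratins with at least 1 FPKM in any library, the 3 tested genes with the largest absolute difference of each list, the targeted genes and defining markers listed at 0. A marker that this rule named is not reported here. Other genes are said to have been chosen after their values were seen or to complete a count. Eppk1, Krt85 and Krt87 were listed but had no row in the table used here. Other pseudocounts (0.1 and 0.5), filters, scalings, variance models and fits without each line were run as alternatives. Python 3.11.15 with pandas 2.3.3 and matplotlib 3.10.9 was used for summaries and figures.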

Additional observations from a re-analysis of the deposited data

How the results depend on the processing

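The number of keratins called was 0 under each alternative, which says nothing about stability, since changes of the size seen here were not called in the simulated data either. Without a filter on low values 41 keratins were tested, 5 of them without overlap between groups, and the median difference was -0.020, since most added members were near 0 in all lines. After quantile normalization the groups did not overlap for 5 keratins. The share of all genes without overlap was not computed for either setting, so these counts show nothing particular to keratins. With other pseudocounts, filters, scalings and variance models, 96 of 97 single differences kept their sign, the exception being Krt6a, at 0.44 with a pseudocount of 0.1. Leaving out 1 line in turn left a genotype with 1 library, whose spread is assumed to be like that of the other. The count without overlap then ran from 5 to 9, that over 0.75 from 3 to 7, with 3 in the fit without JNK_KO replicate 1, and the median from -1.14 to -0.20, with -1.14 without JNK_KO replicate 3. Groups lie apart more easily when 1 of them holds a single line. The shares of all genes were not computed for these fits, so both counts show nothing particular to keratins. Without 1 line, 8 of 44 single differences changed sign. They were Krt14 (-2.25 without JNK_WT replicate 1 and -1.14 without JNK_KO replicate 3, range -2.25 to 3.48), Krt19 (0.72 without JNK_WT replicate 1, range -1.76 to 0.72), Krt17 (0.41, range -3.67 to 0.41), Krt6a (2.49, range -3.59 to 2.49) and Krt79 (0.93, range -3.23 to 0.93), the last 3 without JNK_WT replicate 2, and Krt6a (0.21) and Krt79 (0.10) without JNK_KO replicate 1. The cause was not tested. Krt8, Krt18, Krt7, Krt80, Krt16 and Krt10 kept their sign. The ratio of summed keratin levels between genotypes ran from 0.378 to 0.744 without 1 line. No paired analysis was possible because the genotypes share only the replicate number 1. FPKM give no read depth, so levels under 1 FPKM and levels of close paralogs such as Krt6a and Krt6b are the least certain.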
